A study of Mus musculus with 2 samples.

Results

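Oxidative phosphorylation genes of both genomes were described in mouse melanoma cells profiled singly with the 10x Genomics 3′ assay. Members were the gene rows whose symbols begin with Ndufa, Ndufb, Ndufc, Ndufs, Ndufv, Sdh, Uqcr, Cox4 to Cox8 or Atp5, or with mt-Nd, mt-Co, mt-Atp or mt-Cytb, without pseudogenes and without the Ndufaf assembly factors. A UMI (unique molecular identifier, standing for 1 captured transcript) was also required in at least 5% of the barcodes with at least 5000 gene UMIs and at most 15% mitochondrial UMIs. Of 32285 genes, 102 had such a symbol and 94 met the minimum, of which 81 lie in the nuclear genome and 13 in the mitochondrial genome. The 2 members nearest to the minimum were Sdhaf1 and Sdhaf3, with a UMI in 38.4% and 39.5% of kept cells, and the nearest gene left out was Cox7a1 with 1.83%. The 13 mitochondrial members are all the mt- genes of the feature list, so the limit of 15% acts directly on their sum.

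The cells came from 18 tumors of NMM, a mouse melanoma line with mutated NRAS, grown in Rag-/- mice, whose lack of Rag leaves them without T and B cells of their own. The labels name 3 conditions of 6 tumors: Mix + T, Ag-GAS + T, and Mix PBS, the control that got no T cells (Mix and Ag-GAS are not spelled out). CFP+ tumor cells, called bystander cells in the labels, were sorted after all tumors had been mixed, and read as a single pool, with 1 library of genes and 1 of hashtags. No label ties a hashtag to a condition, so no conditions were compared and every value below describes the mixture or hashtag pairs of unstated condition.

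Of 20917 barcodes, 1474 were kept as cells, with a median of 44512 gene UMIs (range 5049 to 176379) and a median mitochondrial share of 2.62%. Each kept cell carried 1 of 18 pairs of hashtags, with 20 to 257 cells a pair, and a pair was read as 1 tumor, which the labels do not state. Melanoma markers summed to 85.6 CPM (UMIs per 1000000 gene UMIs), with Sox10, Tyr and Tyrp1 at 0, and fibroblast markers to 930 CPM. The T cell, NK cell, B cell, dendritic cell, neutrophil, erythroid and skeletal muscle lists each stayed under 3 CPM, and the keratinocyte list stood at 7.91, the macrophage list at 14.9 (0 to 73.0 over hashtag pairs), the pericyte and smooth muscle list at 18.5 and the endothelial list at 46.5 CPM. Intervals below are exact 95% Poisson or binomial intervals and cover counting error only. With 1 library there are no replicates, and no p-value was computed across cells.

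Oxidative phosphorylation passes electrons from NADH and succinate along complexes I to IV of the inner mitochondrial membrane to oxygen, and complex V, the ATP synthase, uses the resulting proton gradient to make ATP. Mitochondrial DNA encodes a few core subunits of complexes I, III, IV and V, while the nucleus encodes all other subunits and the whole of complex II. The mitochondrial messages are cut from long transcripts of a single circular genome, whereas each nuclear subunit has its own promoter.

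The nuclear members held 21222 CPM over the kept cells (interval 21188 to 21256), and the 13 mitochondrial members held more, 26974 CPM (26935 to 27012). The assay counts transcripts at their 3′ ends, so a level in CPM is a number of captured transcripts, which does not scale with gene length, and it was not divided by length. Capture can differ between transcripts, and comparisons of levels between genes hold within that limit.

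Among nuclear genes, complex V held 7204 CPM over 17 members, complex I 6035 CPM over 36 and complex IV 5660 CPM over 12. Complex III held 1707 CPM over 8 members and complex II 485 CPM over 4. In complex I the highest were Ndufb9, an accessory subunit, at 354 CPM and Ndufa13, also known as GRIM-19, at 328 CPM, and the lowest was Ndufs1, the largest iron-sulfur subunit, at 41.8 CPM. In complex II, Sdhb, the iron-sulfur subunit, stood at 175 CPM, the membrane anchor Sdhd at 143 CPM and the flavoprotein Sdha at 76.2 CPM. The 4 Sdhaf genes, assembly factors of complex II caught by the same prefix, ranged from 11.3 CPM (Sdhaf3) to 63.3 CPM (Sdhaf4). In complex III, the hinge protein gene Uqcrh stood at 459 CPM and Uqcrq at 263 CPM, against 127 CPM for the core protein gene Uqcrc1. Cox4i1, a regulatory subunit of complex IV, was the highest nuclear member at 1072 CPM, followed within its complex by Cox7b at 686 CPM, and Cox6a1 was lowest at 218 CPM. In complex V, Atp5g2, which encodes a copy of the c-ring protein, stood at 826 CPM, the catalytic beta subunit Atp5b at 796 CPM and the subunit e gene Atp5k at 117 CPM.

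Isoforms known from heart and skeletal muscle, testis or other specialised tissues were almost silent. Cox4i1 gave 99.9987% of the Cox4 UMIs, with 1 UMI of Cox4i2 in 1474 cells. Cox6a1 gave 99.7% against Cox6a2, the muscle form, and Cox6b1 gave 99.98% against Cox6b2. Cox7a1, the muscle form, gave 0.0744% of the UMIs it shared with Cox7a2 (55.9%) and Cox7a2l (44.1%). Cox8b and Cox8c had no UMI in 1474 cells, which allows a share of cells with a UMI of up to 0.204% by a limit of 3 counts and up to 0.24995% by the exact binomial interval, and Cox8a gave all the UMIs of its set. Ndufa4l2, a paralog of Ndufa4 known as a hypoxia-induced gene, gave 0.210% of their joint UMIs. The last gene below the minimum, Cox7b2, had 7 UMIs. The c-ring genes Atp5g1, Atp5g2 and Atp5g3 were all expressed, at 29.8%, 51.3% and 19.0% of their joint UMIs. Cox5a (531 CPM) and Cox5b (375 CPM) are not isoforms but different subunits of complex IV. The c-ring genes encode the same mature protein from different precursors, and how the counting treats reads shared by such copies is not given in the sources used here.

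In the mitochondrial genome, 5 genes held 83.9% of the UMIs. These were mt-Atp6 with 21.2%, mt-Co3 with 19.5%, mt-Co1 with 15.8%, mt-Co2 with 15.1% and mt-Cytb, the complex III cytochrome b, with 12.3%. The complex I genes were lower, at 1523 CPM for mt-Nd1, 1327 CPM for mt-Nd4, 928 CPM for mt-Nd2, 261 CPM for mt-Nd5, 120 CPM for mt-Nd3 and 116 CPM for mt-Nd4l. The lowest were mt-Atp8 at 33.1 CPM and mt-Nd6 at 32.8 CPM. All lie on the strand listed as plus except mt-Nd6 (chrM:13552-14070, minus strand), which overlaps the end of mt-Nd5. Both ATP synthase genes lie side by side, yet mt-Atp6, the proton channel, was counted at 5724 CPM.

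Neighbouring genes share bases in 4 pairs, mt-Nd5 with mt-Nd6, mt-Atp6 with mt-Co3 (1 base), mt-Atp8 with mt-Atp6 and mt-Nd4l with mt-Nd4. The last 2 are shown here because a read from the shared stretch belongs to both. Each run gives the overlap in capitals with 30 bases of either side, read from GENCODE M21 transcripts on GRCm38, plus strand, at chrM:7897-7999 and chrM:10137-10203.
mt-Atp8/mt-Atp6: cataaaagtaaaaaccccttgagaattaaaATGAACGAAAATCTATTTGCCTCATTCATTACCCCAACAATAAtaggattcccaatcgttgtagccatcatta
mt-Nd4l/mt-Nd4: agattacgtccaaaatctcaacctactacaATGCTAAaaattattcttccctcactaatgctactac
The overlap is 43 bases in the first pair and 7 bases in the second. Each pair is known to be carried on a single messenger RNA, so a 3′ count of the upstream gene (mt-Atp8, mt-Nd4l) is not a count of a separate transcript. How reads in the overlaps were assigned is not given in the sources used here, and the levels of mt-Atp8 and mt-Nd4l are uncertain for that reason.

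Coordination was examined across 1106 cells thinned to 31100 UMIs each. A cell's nuclear score is the mean of ln(1 + UMIs per 10000) over the nuclear members, its mitochondrial score the same over the mitochondrial members, and a gene is always left out of the score it is compared with. An r of at least 0.3 is called a link here, by size alone. Of 81 nuclear members, 39 reached it with the nuclear score, against 1.22% of the 11089 genes tested (those seen in 5% or more of kept cells) and 8.78% of the 1514 tested genes of at least 100 CPM. Of 13 mitochondrial members, 10 reached it with the mitochondrial score, against 0.0992% of the genes tested and 0.727% of those of at least 100 CPM. After the mean of each hashtag pair was subtracted the counts were 41 (1.27% of genes tested, 9.18% of those of at least 100 CPM) and 10 (0.0902% and 0.661%). No nuclear member reached 0.3 with the mitochondrial score (range -0.205 to 0.254) and no mitochondrial member with the nuclear score (range -0.229 to 0.188).

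**Figure D1:**
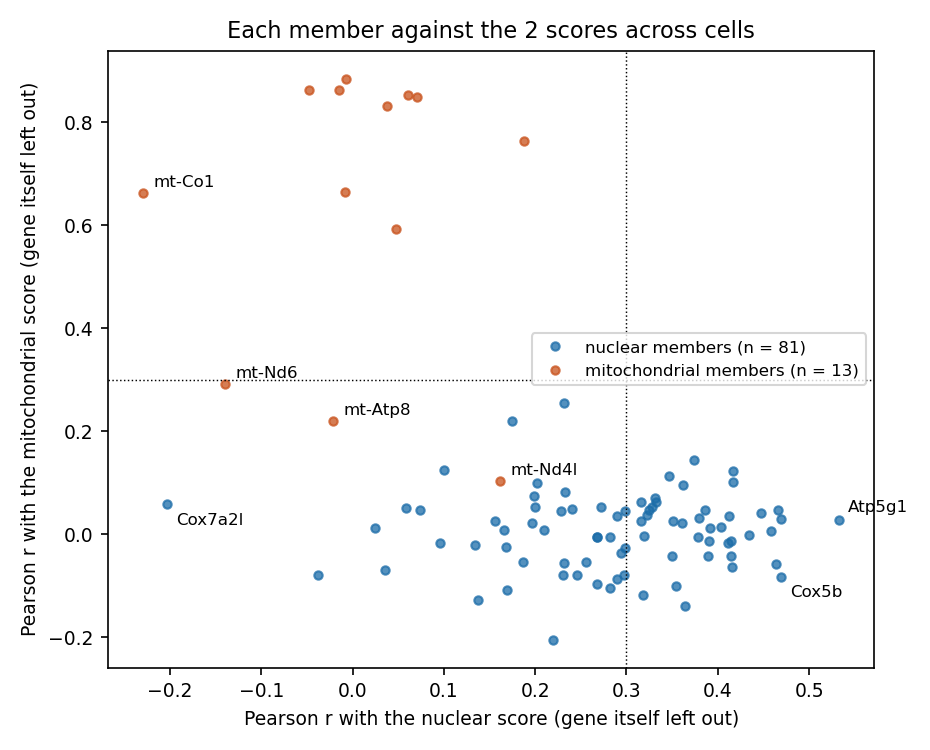
Pearson r of each member with the nuclear score (horizontal) and with the mitochondrial score (vertical) across 1106 thinned cells, with dotted lines at 0.3. The 81 nuclear members (blue) spread along the horizontal axis near 0 on the vertical one, 10 of the 13 mitochondrial members (orange) lie above 0.3 on the vertical axis, and no point lies beyond 0.3 on both.

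Pearson's r between the nuclear and mitochondrial scores was 0.0230 over all thinned cells and 0.0144 within hashtag pairs. With scaling that leaves out mt- UMIs the values were 0.0791 and 0.0693. Among the 15 hashtag pairs with at least 20 thinned cells, r was positive in 9 and negative in 6, from -0.561 (HTO4/HTO8, 24 cells) to 0.146 (HTO8/HTO10, 96 cells) with a median of 0.0711. Gene by gene, the median r was 0.0919 over 3240 pairs of nuclear members, 0.514 over 78 pairs of mitochondrial members and 0.00130 over 1053 pairs of a nuclear and a mitochondrial member. Among the 1437 other genes of at least 100 CPM the median was 0.0108. These are descriptions over cells that share 1 library and a fixed depth, at which all genes compete for the same number of UMIs. An r of 0 is therefore not the value that independent scores would give, and neither a link nor its absence is read from these r. After thinning to 10000 UMIs, with 1427 cells, r was -0.0986 over all cells and -0.114 within pairs, and 12 nuclear members reached 0.3. The share of all genes that reached 0.3 at that depth was not computed, so the lower count is not read as particular to the members.

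**Figure D2:**
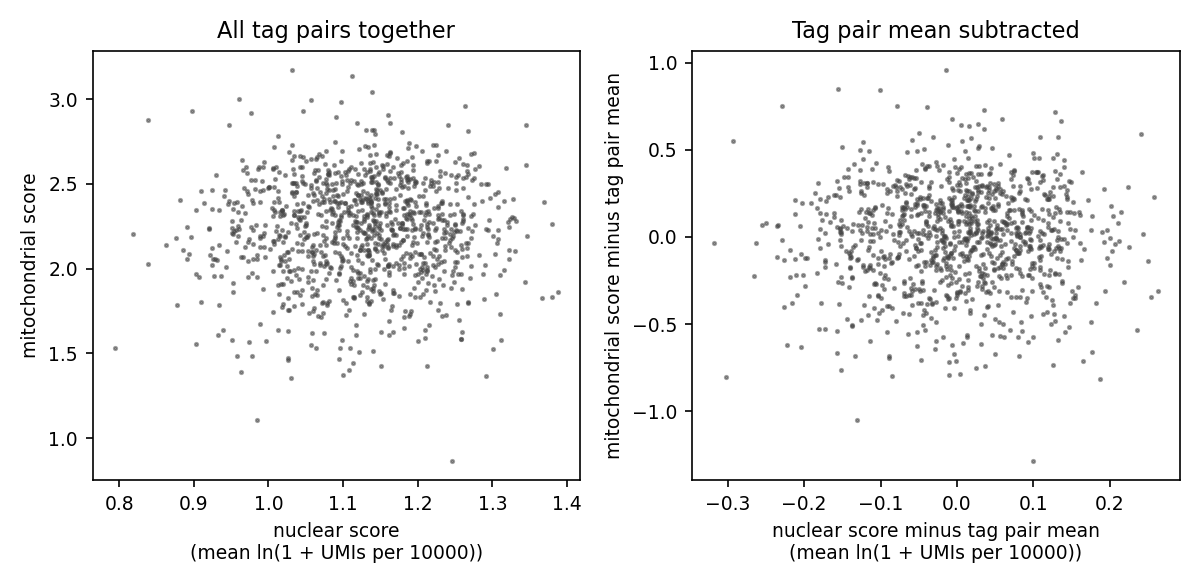
Nuclear score (horizontal) and mitochondrial score (vertical) of 1106 thinned cells, both as mean ln(1 + UMIs per 10000), over all hashtag pairs (left, r = 0.0230) and after each pair's mean was subtracted (right, r = 0.0144). Each point is 1 cell, and both r are near 0, which at fixed depth is not the value for independent scores.

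Complexes were followed by the scores of their own members. Nuclear complex I and nuclear complex V had the highest r of the nuclear complexes, 0.723, followed by IV with V at 0.683 and I with IV at 0.591. Complex II, with 4 genes, reached 0.310 to 0.420 with the others. The scores of the nuclear and mitochondrial genes of 1 complex had r of 0.0105 for complex I, 0.0495 for complex III, 0.0260 for complex IV and 0.0101 for complex V, under the same limit of fixed depth. Membership of the same complex made little difference among nuclear genes, with a median r of 0.0969 over 872 pairs in the same complex and 0.0908 over 2368 pairs in different ones.

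The nuclear members with the highest r with the nuclear score were Atp5g1 (0.533), the matrix-facing complex IV subunit Cox5b (0.470), Atp5j2 (0.469), Atp5o (0.465), which joins the catalytic head to the stalk, and Atp5b (0.463). By complex, 14 of 17 members of V, 9 of 12 of IV, 13 of 36 of I, 2 of 8 of III and 1 of 4 of II reached 0.3, and none of the 4 Sdhaf genes did. Of all genes tested 1.22% reached it, or 8.78% of those of at least 100 CPM. The median member stood at 405 CPM in V, 376 in IV, 178 in III, 150 in I and 117 in II. The counts by complex were not separated from these levels. The highest single pair within hashtag pairs was Atp5b with Atp5a1, the catalytic beta and alpha subunits, at r = 0.431, and then Cox5a with Atp5b at 0.406. Low counts limit r. Across 80 nuclear members with an annotated coding transcript, Spearman's rho between CPM and r was 0.697, with genes that are not independent.

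The lowest were Cox7a2l (-0.203), Sdhaf2 (-0.0380), Sdhaf3 (0.0240), Ndufa6 (0.0353) and Ndufs1 (0.0590). Cox7a2l (chr17:83501918-83517330, GRCm38, minus strand) is known as SCAF1, a factor that joins complexes III and IV into supercomplexes. At 273 CPM and with a UMI in 97.5% of kept cells it was not a gene of low counts. It was 1 of 2 nuclear members with a negative r, against 57.3% of all genes tested. Of the 66 nuclear members of at least 100 CPM it alone was negative, against 533 of 1514 genes of that level. Its paralog Cox7a2, a structural subunit at 347 CPM, had an r of 0.413. Ndufa6 stood at 158 CPM, so its r near 0 was also not that of a rarely counted gene.

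Among mitochondrial genes, mt-Atp6 had the highest r with the mitochondrial score (0.884), and mt-Co2 with mt-Atp6 was the closest pair within hashtag pairs (0.896). The 3 that did not reach 0.3 were mt-Nd4l (0.103), mt-Atp8 (0.219) and mt-Nd6 (0.292). mt-Atp8 and mt-Nd6 were the least counted members of this genome, but mt-Nd4l stood at 116 CPM, near mt-Nd3 (120 CPM), which had an r of 0.665. Within hashtag pairs the r of mt-Nd4l was 0.119 with mt-Nd4, its overlapping partner, and 0.256 with mt-Cytb, its highest. mt-Co1 had the lowest r of any member with the nuclear score (-0.229), while mt-Cytb had the highest of the mitochondrial genes (0.188).

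Promoter sequences of RefSeq (GRCm38.p6, 250 bases before to 50 after the start) were matched by symbol for 68 of the 81 nuclear members. The NRF1 motif, bound by a regulator of respiratory genes and searched as GCGCA, 1 base of any kind and GCGC, occurred on either strand in 19 of the 68 (27.9%), in 12.8% of 8739 genes tested and in 5.19% of all 27025 genes of the table. The ETS letters CCGGAAG, bound by GABP among others, occurred in 20 of 68 (29.4%), against 22.1% and 9.93%. The YY1 letters AAGATGGC occurred in 9 of 68 (13.2%), against 5.79% and 3.19%, and TATAAA in 7 of 68 (10.3%), against 8.28% and 15.7%. Members with the NRF1 letters had a median r with the nuclear score of 0.315 and those without 0.298. The promoters below are those of the 3 members with the highest r among members that hold the NRF1 or ETS letters, with these letters in capitals (on either strand), read 5′ to 3′ along the gene. They are shown as examples only, and a match is a description of letters only. Most members with as high an r hold neither set of letters. Atp5g1 (0.533), Cox5b (0.470), Atp5j2 (0.469), Atp5b (0.463) and Ndufb8 (0.459) hold neither, and each had a higher r than Atp5c1 (0.447).
Atp5o: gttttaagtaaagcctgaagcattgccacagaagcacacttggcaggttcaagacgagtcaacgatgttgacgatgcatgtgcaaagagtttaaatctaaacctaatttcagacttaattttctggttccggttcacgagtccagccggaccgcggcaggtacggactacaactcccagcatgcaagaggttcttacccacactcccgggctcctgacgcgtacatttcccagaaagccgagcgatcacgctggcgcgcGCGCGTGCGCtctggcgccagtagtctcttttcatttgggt
Atp5c1: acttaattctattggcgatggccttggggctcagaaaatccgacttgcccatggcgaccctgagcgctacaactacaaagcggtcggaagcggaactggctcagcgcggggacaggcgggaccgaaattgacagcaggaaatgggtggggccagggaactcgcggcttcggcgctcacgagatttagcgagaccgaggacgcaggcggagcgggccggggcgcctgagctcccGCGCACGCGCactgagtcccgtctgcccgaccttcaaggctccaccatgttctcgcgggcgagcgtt
Cox8a: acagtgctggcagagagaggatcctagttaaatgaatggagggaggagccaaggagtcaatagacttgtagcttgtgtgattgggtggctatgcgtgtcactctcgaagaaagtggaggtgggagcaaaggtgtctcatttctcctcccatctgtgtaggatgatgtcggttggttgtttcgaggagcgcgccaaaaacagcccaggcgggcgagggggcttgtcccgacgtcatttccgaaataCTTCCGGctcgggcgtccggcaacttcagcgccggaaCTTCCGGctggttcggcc
They lie at chr16:91931581-91931880, chr2:10080383-10080682 and chr19:7217567-7217866, all on the minus strand. Atp5o holds 1 NRF1 match, Atp5c1, the gamma subunit of the rotor, 1 NRF1 match, and Cox8a 2 ETS matches.

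Genes outside the members showed which other transcripts went with the nuclear score. The 10 with the highest r were Ppia (0.629), Oaz1 (0.504), Txn1 (0.479), Psmb3 (0.474), Chchd2 (0.473), Park7 (0.471), Psma7 (0.466), Pfn1 (0.465), Lgals1 (0.465) and Mdh2 (0.456). They include the abundant chaperone cyclophilin A (Ppia), proteasome subunits (Psmb3, Psma7), thioredoxin (Txn1) and 2 mitochondrial proteins, Chchd2 and the malate dehydrogenase Mdh2. The lowest was the nuclear long noncoding RNA Malat1 (-0.478), followed by Tpt1 (-0.444) and Fn1 (-0.426). With the mitochondrial score only Rpl23a reached 0.3 among the genes tested outside the members, and the 10 highest ranged from 0.244 (Chst2) to 0.304 (Rpl23a), with Rps25, Cgnl1, Kcnq1ot1, H3f3a, Igf2r, Atrx, Rpl13a and S100a4 between them.

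Scores of lists of other mitochondrial genes had a higher r with the nuclear score than with the mitochondrial one. Among them, the 78 mitochondrial ribosomal proteins had r of 0.642 with the nuclear score and -0.141 with the mitochondrial score, carriers and core genes outside the prefixes 0.576 and -0.152, the citric acid cycle 0.469 and 0.0289, assembly factors 0.430 and -0.0428, and protein import 0.409 and -0.0920. Single genes reached 0.3 with the nuclear score in 6 of 15 tested carriers and core genes, among them cytochrome c1 (Cyc1, 0.364), cytochrome c (Cycs, 0.304) and the phosphate carrier Slc25a3 (0.381). They did so in 2 of 16 citric acid cycle genes, 4 of 23 import genes, 2 of 78 mitochondrial ribosomal genes and 0 of 44 assembly factors, against 1.22% of all genes. Among genes of at least 100 CPM the counts were 6 of 12 carriers and core genes, 2 of 2 citric acid cycle genes, 4 of 14 import genes, 2 of 33 mitochondrial ribosomal genes and 0 of 2 assembly factors, against 8.78%. The share for mitochondrial ribosomal genes was thus not above that background. The list of mitochondrial DNA and RNA factors, with Tfam and the mitochondrial RNA polymerase, had r of 0.277 with the nuclear score and -0.0219 with the mitochondrial score, and 0 of its 25 genes reached 0.3 with either. The list of nuclear regulators, with Nrf1, Gabpa and Yy1, had -0.149 and 0.0519, and 0 of its 11 tested genes reached 0.3. Hypoxia and glycolysis genes had 0.0150 and -0.179, cytosolic ribosomal proteins 0.0629 and 0.108, S phase genes 0.236 and 0.0274 and G2/M genes 0.0877 and 0.0194. Interferon-gamma response genes had -0.103 and -0.293. A higher r with the nuclear score was thus also seen for lists of other genes, though not for cytosolic ribosomal proteins or nuclear regulators. That order is not particular to mitochondrial genes.

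Across hashtag pairs the nuclear sum varied little. It ran from 20535 CPM (HTO3/HTO9) through a median of 21309 to 22244 CPM (HTO3/HTO7), a ratio of 1.08. The intervals of these 2 pairs were apart (20425.5 to 20644.4 against 21939.3 to 22552.7 CPM), so the sum differed beyond counting error. In the order of pairs, 1 of 17 neighbours had intervals that did not meet. The mitochondrial sum ran from 23880 CPM (HTO1/HTO9) through 27622 to 32153 CPM (HTO1/HTO2), a ratio of 1.35, and 9 of 17 neighbours had intervals apart. Mitochondrial UMIs per nuclear-member UMI ran from 1.13 to 1.53. Over the 18 pairs the 2 sums had r of 0.187 (permutation p = 0.456, adjusted over 9 relations 0.874) and Spearman's rho of 0.176 (p = 0.483, adjusted 0.930), and r was 0.118 without the 2 pairs farthest in the mitochondrial sum. Over the 11 pairs with at least 50 cells r was 0.545 (permutation p = 0.0842) and rho 0.536 (p = 0.0939), neither adjusted. Among the 6 pairs with at least 100 kept cells r was -0.0327 (exact permutation p = 0.940), and among the 12 smaller pairs -0.249 (permutation p = 0.427).

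**Figure D3:**
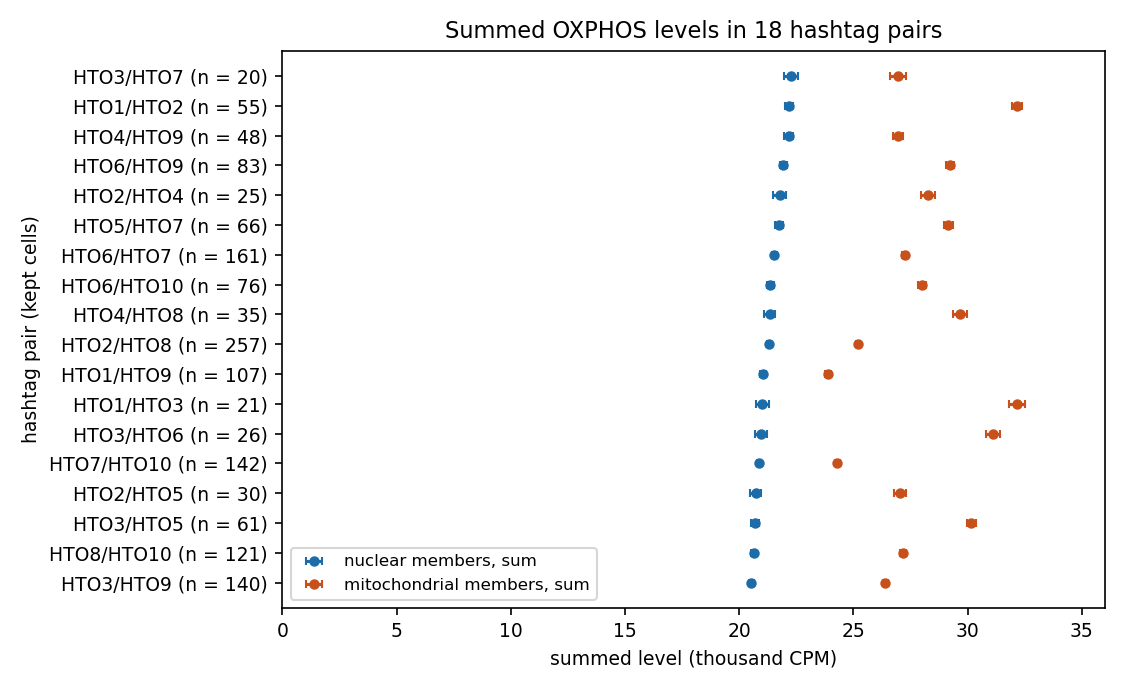
Summed levels of the 81 nuclear (blue) and 13 mitochondrial (orange) members, in units of 1000 CPM, in each of 18 hashtag pairs, with exact 95% Poisson intervals and the number of kept cells. The nuclear sums form a narrow column between 20535 and 22244 CPM, whereas the mitochondrial sums spread from 23880 to 32153 CPM.

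With both sums scaled by UMIs other than Rpl, Rps and mt- UMIs, r was 0.485 (permutation p = 0.0421) and rho 0.536 (p = 0.0236), neither adjusted. Both sums were divided by the same total of each pair, which can itself move r. The permutation takes no account of that, so no link between the genomes is read from these values. The sums in CPM share a total in the same way.

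None of the 9 relations over the pairs, which also set each sum against S phase, G2/M, hypoxia and ribosomal protein lists, passed adjustment at 0.05 over all 18 pairs. The lowest p was that of ribosomal proteins with the nuclear sum (r = 0.567, permutation p = 0.0145, adjusted 0.131; rho = 0.562, p = 0.0175, adjusted 0.157). That relation was -0.138 among the 6 larger pairs and 0.445 among the 12 smaller ones. It was 0.555 without the 2 pairs farthest in ribosomal level. Ribosomal proteins and the mitochondrial sum had r of 0.445 over all 18 (permutation p = 0.0642, adjusted 0.289; rho = 0.476, p = 0.0475, adjusted 0.214) and 0.422 without the same 2 pairs. Their relation differed in direction between the 2 sizes of pair, with r = 0.977 among the 6 larger pairs (exact permutation p = 0.00139, the smallest that 6 pairs allow, adjusted over the 9 relations 0.0125) and r = -0.382 among the 12 smaller ones (permutation p = 0.219). Ribosomal proteins spanned only 242969 to 248912 CPM in those 6 pairs. The split by cell number was chosen after the values were seen, and the difference between the sizes was not tested.

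Single members differed between hashtag pairs by at least 1.5 fold beyond their counting intervals in 5 of 94 cases, against 12% of all genes tested and 16.2% of those of at least 100 CPM. They were mt-Nd1 (1208 to 2300 CPM), mt-Nd2 (758 to 1301 CPM), mt-Nd3 (88.9 to 178 CPM), mt-Nd6 (15.4 to 44.6 CPM) and the nuclear gene Ndufa4 (228 to 549 CPM). For mt-Nd6 the lower bound of the highest pair was 1.502 times the upper bound of the lowest, just over the limit, against 2.08 for Ndufa4. The lowest mt-Nd6 level was that of HTO2/HTO4, with 25 kept cells. With the limit on the mitochondrial share at 30% instead of 15% only 2 members met the rule. The largest ratios of highest to lowest pair were those of mt-Nd6 (2.91), Sdhaf1 (2.57), Ndufa4 (2.41), mt-Nd3 (2.00) and mt-Nd1 (1.90), where that of Sdhaf1, at 7.68 to 19.7 CPM, lay within its counting intervals. The median ratio was 1.28 for nuclear members and 1.57 for mitochondrial ones. Cox4i1, the most abundant nuclear member, had a ratio of only 1.11, from 1030 to 1141 CPM.

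Ndufa4 (chr6:11900292-11907497, GRCm38, minus strand) encodes a subunit of complex IV that was first assigned to complex I. In the 6 hashtag pairs with at least 100 kept cells it stood at 228 CPM (HTO1/HTO9), 234 (HTO3/HTO9), 235 (HTO8/HTO10), 247 (HTO2/HTO8), 248 (HTO7/HTO10) and 278 CPM (HTO6/HTO7). In the other 12 it ran from 412 CPM (HTO1/HTO3) through a median of 472 to 549 CPM (HTO3/HTO7). The 2 sets did not overlap. The same was true of 139 of the 11089 genes tested in that direction (1.25%) and of 271 (2.44%) in the other, or 4.82% and 6.87% of those of at least 100 CPM. Of the other members, mt-Co3 (4608 to 5297 against 5344 to 6380 CPM) and mt-Nd4l (88.6 to 125 against 127 to 145 CPM) were also lower in all 6 larger pairs. Ndufs4, an accessory subunit of complex I (154 to 162 against 117 to 136 CPM), and Sdhaf2 (42.5 to 50.5 against 29.8 to 42.0 CPM) were higher. The same 6 pairs had the highest levels of the interferon-gamma response list, 6424 to 9892 CPM against 1417 to 3337 CPM, and whether this or cell number goes with Ndufa4 cannot be told apart over pairs. What the 6 pairs had in common beyond these values is not given by the labels.

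Across all thinned cells Ndufa4 was the only member with an r at or below -0.3 with the interferon-gamma score (-0.465), against 0.389% of the 11067 genes outside that list and 2.8% of those of at least 100 CPM, and it had the lowest r of all of them. Within hashtag pairs its r was -0.167, and 0 of 94 members stood at or below -0.3 (0.181% of genes). It was no longer the lowest member there. Atp5a1 (-0.198), mt-Nd2 (-0.184), Uqcr10 (-0.177) and mt-Nd1 (-0.176) were lower. All 13 mitochondrial members were negative both over all cells (median -0.213) and within pairs (median -0.112), as were 58% and 52.4% of genes outside the list, or 61.6% and 61% of those of at least 100 CPM. Nuclear members had medians of -0.0438 and -0.0214, near those of genes of at least 100 CPM, -0.0344 and -0.0363. The lowest r of any gene tested with the mitochondrial score was that of the class I MHC gene H2-D1 (-0.355 over all cells, -0.265 within pairs).

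The gene AA467197 was added after its values were seen. It lies at chr2:122637887-122641076, is known as Nmes1, encodes a small mitochondrial protein related to Ndufa4 that is known to take its place in complex IV in inflamed cells, and hosts the microRNA gene Mir147. In the 6 larger hashtag pairs it stood at 136 CPM (HTO6/HTO7), 173 (HTO7/HTO10), 208 (HTO2/HTO8), 223 (HTO1/HTO9), 232 (HTO3/HTO9) and 251 CPM (HTO8/HTO10). In the other 12 it ran from 8.94 CPM (HTO3/HTO5) through a median of 16.5 to 36.3 CPM (HTO1/HTO2). The pairs with high AA467197 were thus the pairs with low Ndufa4, without overlap in either gene. Of all genes tested, 2.44% were higher in all 6 larger pairs, or 6.87% of those of at least 100 CPM. With the interferon-gamma score AA467197 had r of 0.550 over all thinned cells and 0.317 within hashtag pairs. Whether the 2 genes go with each other or each with the interferon-gamma response cannot be told apart over pairs. Barcodes under 800 UMIs, taken here as RNA from outside cells, had 186 CPM of AA467197 and 437 CPM of Ndufa4. How much of the low AA467197 counts comes from such RNA was not tested.

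**Figure D4:**
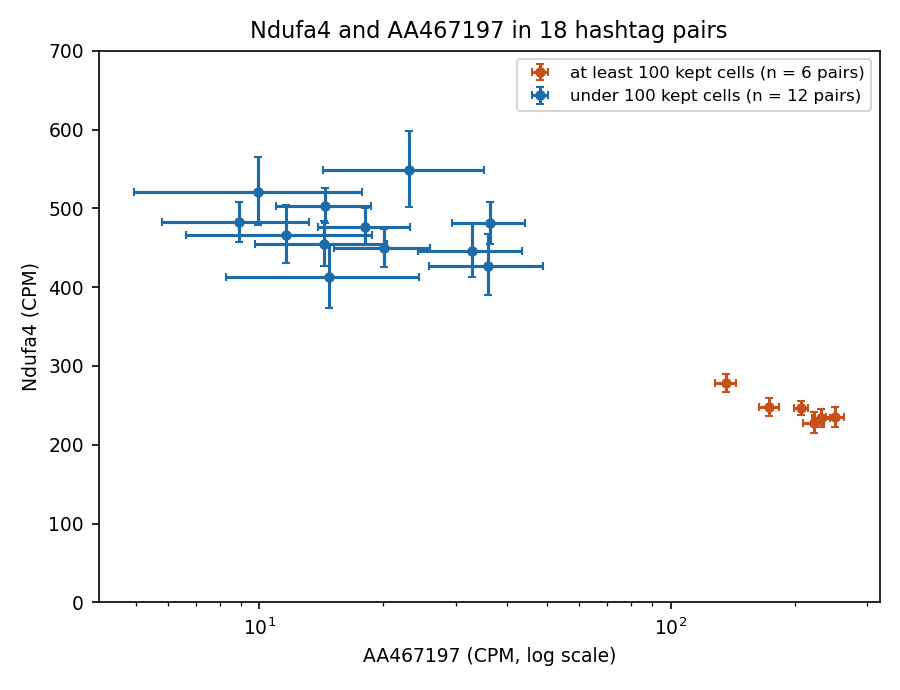
AA467197 (horizontal, CPM on a log scale) and Ndufa4 (vertical, CPM) in each of 18 hashtag pairs with exact 95% Poisson intervals. The 6 pairs with at least 100 kept cells (orange) lie at 136 to 251 CPM of AA467197 and 228 to 278 CPM of Ndufa4, and the other 12 (blue) at 8.94 to 36.3 and 412 to 549 CPM.

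The opposition was also seen from cell to cell, in the larger hashtag pairs. Over 1106 thinned cells Ndufa4 and AA467197 had r of -0.564, and of -0.399 after the mean of each hashtag pair was subtracted. In both cases Ndufa4 had the lowest r with AA467197 among all 11089 genes. Inside each of the 6 larger pairs r was negative, from -0.609 to -0.384 with a median of -0.459. Inside the 9 smaller pairs with at least 20 thinned cells, where AA467197 was scarce, r was negative in 5. It ran there from -0.313 to 0.162 with a median of -0.0742. By expression cluster, AA467197 was highest and Ndufa4 lowest in the same of the 5 larger clusters, at 314 and 213 CPM. AA467197 is among the leading genes of that cluster, so this is a description. The mRNA of the c-ring gene Atp5g1, the member with the highest r with the nuclear score, showed no such split, with 458 to 498 CPM in the 6 larger pairs and 412 to 531 CPM in the others.

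Sequences of both transcripts are shown because the host gene carries a microRNA. The RefSeq table gave the Mir147 hairpin (chr2:122640803-122640881, GRCm38.p6, plus strand) and the mature mmu-miR-147-5p, and mmu-miR-147-3p is named only. Capitals in the hairpin and in the 30 bases of Ndufa4 mark runs of 8 bases that are complementary between them downstream of the Ndufa4 stop codon, and capitals in the mature sequence mark its seed (bases 2 to 8). The Ndufa4 window lies at chr6:11900460-11900489 (minus strand), bases 352 to 381 of transcript Ndufa4-201, whose stop codon ends at base 306.
Mir147 hairpin: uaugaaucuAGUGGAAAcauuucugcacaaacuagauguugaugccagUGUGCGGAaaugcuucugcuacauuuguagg
mmu-miR-147-5p: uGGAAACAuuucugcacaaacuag
Ndufa4 window: aagccaTCCGCACAatTTTCCACTtaagca
The complement of the 3′-arm run, TCCGCACA, occurred in coding transcripts of 2.37% of 10573 genes tested, and among members only in Ndufa4 and Ndufs5. That of the 5′-arm run, TTTCCACT, occurred in 8.36%, and both in 0.265%. The hairpin had 2 further runs of 8 complementary to Ndufa4, upstream of the stop codon. The complement of the 5p seed, TGTTTCC, was not in the transcript. The microRNA itself was not measured, and a complementary run is a match of letters, not a site shown to act.

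Expression clusters differed more in the mitochondrial than in the nuclear sum. Cluster 1 (404 cells, led by AW112010, Apod and Cd74) had the lowest nuclear sum of the 5 larger clusters, 19844 CPM, with 25657 CPM of mitochondrial members. Cluster 2 (331 cells, led by Prg4, Mgp and Itga1) had 20663 CPM and the highest mitochondrial sum of the 5, 32540 CPM. Cluster 3 (312 cells, led by Fst, AA467197 and Cxcl10) had 21156 CPM and the lowest mitochondrial sum, 24208 CPM. The proliferation genes Nusap1, Prc1 and Cenpf led cluster 4 (261 cells), with sums of 22231 and 27807 CPM. Ndrg1, Il11 and Hbegf led cluster 5 (162 cells), which had the highest nuclear sum, 22510 CPM, and 25776 CPM of mitochondrial members. A last cluster of 4 cells, led by Fcer1g, C1qa and C1qb, held 20600 and 36236 CPM. None was named as a cell type. The clusters were built from the same counts, and no cluster was tested against another.

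Barcodes were also ordered by their mitochondrial share, with nuclear members taken per 1000000 non-mitochondrial UMIs so that the share itself does not enter. The nuclear level stayed between 21390 and 22304 in the 5 bins up to 6%, which held 1406 of the 1474 kept cells. It was 18050 in 26 cells with 6 to 10%, 14810 in 42 cells with 10 to 15%, 13555 in 115 barcodes with 15 to 30% and 11614 in 60 barcodes above 30%, where the last 2 bins hold the 175 of 199 barcodes over the limit that carried a hashtag pair. Depth was also lower at high shares, from a median of 48172 UMIs at 1 to 2% to 6428 above 30%. Cytosolic ribosomal proteins rose from 251150 per 1000000 at 1 to 2% to 275371 at 4 to 6%. Above 6% they were lower, at 202241 with 6 to 10% and 119972 above 30%. The part of depth and of ribosomal proteins in the result was not tested.

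**Figure D5:**
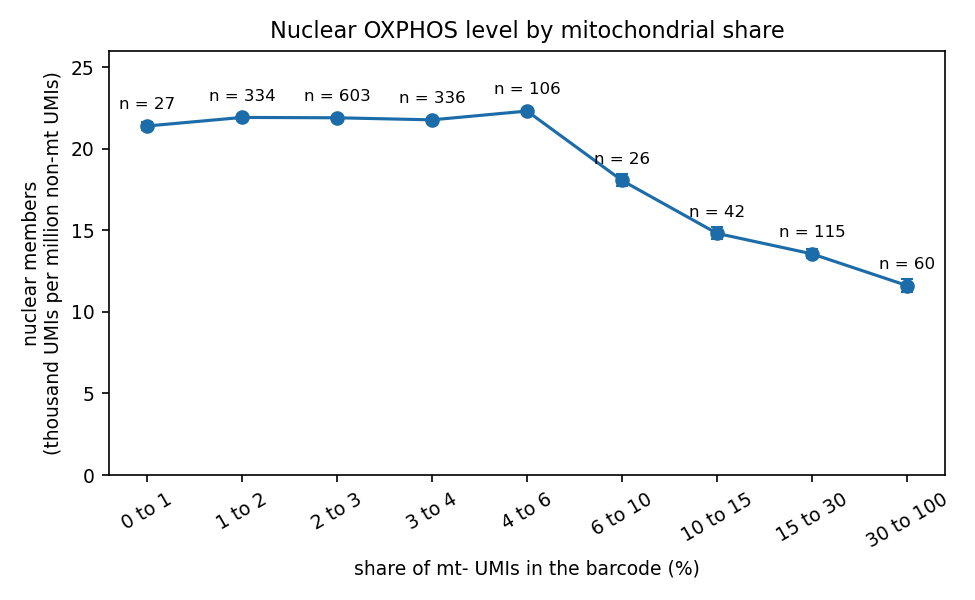
Summed nuclear members per 1000000 non-mitochondrial UMIs (vertical, in units of 1000, with exact 95% Poisson intervals) by the share of mt- UMIs in the barcode (horizontal, in percent), with the number of barcodes. The level stays between 21390 and 22304 up to 6% and is lower in every bin above, down to 11614.

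In all 199 barcodes over 15%, nuclear members stood at 13300 per 1000000 non-mitochondrial UMIs, 0.610 times the level of kept cells. Of the 66 nuclear members of at least 100 CPM, 52 were at least 1.5 fold lower there, against 39.2% of 1503 nuclear genes of that level, and 0 were at least 1.5 fold higher, against 15.7%. Complex III and complex V were lowest, at 0.509 and 0.523 times, and complex IV stood at 0.702 times. Atp5e, the epsilon subunit, was at 0.325 times and Ndufa7 at 0.370 times. The 6 of 81 nuclear members above their level in kept cells were Sdha, Ndufs1, Cox6c, Cox6a1, Sdhaf1 and Ndufb9. The share of all genes above their level in kept cells was not computed, so the 6 are not read as many or few. Sdha stood at 1.58 times, Ndufs1 at 1.51, Cox6c at 1.40, Cox6a1 at 1.35, Sdhaf1 at 1.29 and Ndufb9 at 1.20 times its level in kept cells. No counting intervals were computed for these ratios. That of Sdhaf1, at 12.8 CPM in these barcodes, rests on few UMIs and may lie within counting error.

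Barcodes under 800 UMIs, taken here as RNA outside cells, were poor in mitochondrial transcripts and not in those of nuclear members. Whether they also hold shallow cells, nuclei or fragments was not tested. In 18473 barcodes under 800 UMIs the mt- genes held 0.384% of UMIs, against 2.70% in kept cells, while the nuclear members stood at 1.19 times their level in kept cells per 1000000 non-mitochondrial UMIs. Of 66 nuclear members of at least 100 CPM, 4 were at least 1.5 fold higher there, Atp5md (1.75 times), Atp5k (1.66 times), Ndufc1 (1.56 times) and Cox7b (1.55 times), against 0.865% of 1503 genes, and 0 were lower, against 10%. Uqcrc1 had the lowest ratio, 0.724. Across nuclear members this ratio fell with the length of the annotated transcripts (Spearman's rho = -0.636 over 80 genes, which are not independent).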

How the data were processed

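The deposited matrix holds raw counts, as UMIs per gene and hashtag in each barcode, from Cell Ranger 6.1.2 per the file headers. The submitters' processing notes name Cell Ranger 2.1.1 and GRCm38, and the filter behind the barcode list is not given in the sources used here. Barcode and feature tables (other, non-numeric values) were deposited beside it. Members and lists were chosen with earlier results of these data known.

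Barcodes with at least 5000 gene UMIs and at most 15% mt- UMIs were kept where the second hashtag had at least 4 times the UMIs of the third (1 added to both) and the pair occurred in at least 10 such barcodes. A ratio was used in place of a cutoff per tag, whose values could not be rebuilt. It left out 183 barcodes as mixed. Doublets within a pair are not seen. Levels are summed UMIs in CPM. Correlations used cells thinned without replacement to 31100 UMIs (368 shallower cells left out) and ln(1 + UMIs per 10000). Permutation tests were two-sided with 100000 resamples, and exact below 10 pairs. A tag pair call needs the lower bound of the highest pair over the upper bound of the lowest to reach 1.5. Clusters came from scanpy 1.11.5 (2000 variable genes, 30 components, 15 neighbours, Leiden resolution 0.5), and leading genes were ranked by fold with 5 CPM added among genes seen in 25% or more of a cluster. The calls were tested on simulated data. Named genes were all mt- members, the 2 most and the 1 least abundant nuclear member of each complex, the 5 nuclear members at either end of r with their score, the 5 largest ratios between pairs, isoform sets, and the 10 outside genes highest in r with each score. All further genes, AA467197 among them, were chosen after their values were seen. Coordinates are those of GENCODE M21. Tools were Python 3.11.15, numpy 2.4.6, scipy 1.17.1 and pandas 2.3.3. Alternatives were other limits, scalings, thinning depths and hashtag ratios.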

Additional observations from a re-analysis of the deposited data

How the results depend on the processing

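Of 119 recomputed values, 87 stayed within their interval or on their side of the limit and the others follow. The 87 do not measure robustness. They include cell-level r and member counts at 10%, 30% and 10000 UMIs, which were identical to the main values. Cells thinned to 31100 UMIs already exceed 10000, so that setting could not change them. The 87 also include the r over pairs of at least 50 cells, 0.545 against 0.187 over all pairs. The levels move with the filters: the nuclear and mitochondrial sums were 21280 and 26275 CPM with at most 10% mitochondrial UMIs, 21078 and 29607 with at most 30%, 21267 and 26726 with at least 10000 UMIs, and 21810 and 27722 without mt- UMIs in the total. They were 21182 and 26608 CPM at a hashtag ratio of 8, 21313 and 26927 at a ratio of 2, and 20997 and 31676 with no mitochondrial limit; these 3 settings and the split by pair size were added after seeing the data. The mitochondrial ratio between pairs was 1.38 at 10%, 1.19 at 30%, 1.37 with 10000 UMIs, 1.40 without Rpl, Rps and mt- UMIs (nuclear 1.12), 1.33 at a hashtag ratio of 2 and 1.31 with no limit. At 30% the members differing by 1.5 fold fell to 2.

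Over pairs the sums had r of 0.485 and rho of 0.536 without Rpl, Rps and mt- UMIs, 0.545 and 0.536 in the 11 pairs of at least 50 cells, r of -0.0125 with no limit and -0.0327 in the 6 larger pairs, and r of -0.249 and rho of -0.301 in the 12 smaller. Thinned to 10000 UMIs, the cell-level r was -0.0986, or -0.114 within pairs. At that depth 12 nuclear members reached 0.3, and the share of all genes that did so was not computed. At a hashtag ratio of 2 the r within pairs was -0.00183, and without mt- UMIs in the total r was 0.0791 over all cells and 0.0693 within pairs. The cause was not tested. No paired analysis was possible because the 2 libraries are the genes and the hashtags of 1 pool. Depth limits r for members of low counts, and the 1 library gives no error between replicates.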
